A study of Saccharomyces cerevisiae with 8 samples.

Results

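The comparison is between yeast after 4 h and yeast after 2 h in TFM, across all 5449 annotated genes on the array. It rests on 4 of the 8 arrays of the study: both arrays made at 4 h, which are technical arrays of 1 RNA sample, and the 2 samples taken at 2 h. The cultures were Saccharomyces cerevisiae BY4741, a MATa haploid without the genes URA3, LEU2 and MET17, grown to saturation in YPD, a rich medium with glucose. At 4 h and at 2 h they had been kept in 0.05 mM TFM in 2% isopropanol, its solvent. Samples at 1 h in TFM (n = 2) and controls at time zero with 2% isopropanol alone (n = 2) supply much of the estimate of spread and the earlier levels. TFM stands unexplained in the labels; a nitrophenol that kills lampreys and is known as an uncoupler of oxidative phosphorylation goes by this name. No culture with solvent alone was sampled at 2 h or at 4 h, so longer exposure to TFM and 2 h more in a saturated culture cannot be told apart.

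Yeast in a saturated glucose culture has usually used up its glucose and lives on the ethanol it made earlier. Ethanol is oxidised to acetate, acetate feeds the glyoxylate cycle and the tricarboxylic acid (TCA) cycle, and gluconeogenesis rebuilds sugar phosphates from the products. Genes for these steps are known to be repressed by glucose. Ribosomal protein genes are known to be expressed in step with growth, and genes of sulfur assimilation and methionine synthesis with the need for methionine and S-adenosylmethionine.

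Between 2 h and 4 h the genes that passed the test were mostly genes that fell. ADH2, the alcohol dehydrogenase that oxidises ethanol, fell by 2.05 on the log2 scale. So did 5 genes of the glyoxylate cycle and gluconeogenesis, by 0.87 to 1.35. Also lower were INO1 of inositol synthesis, 7 ribosomal protein genes and 3 genes of DNA precursor supply and replication. The 5 genes that rose included STR3 and MUP3 of methionine supply and the peptide transporter gene OPT1. In limma's moderated test with Benjamini-Hochberg adjustment over all genes, 42 genes were lower at 4 h and 5 were higher at an adjusted p under 0.05, which is 0.771% and 0.0918% of the genes tested and 0.863% together. Of these, 17 were lower and 1 was higher by at least 2-fold.

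The test treats the 4 h sample, which has no replicate of its own, as varying like the other groups. With 2 h replicate 1 or 2 h replicate 2 left out, no gene passed in limma (0 of 5449, with smallest adjusted p values of 0.0509 and 0.0513), although 293 and 329 genes then had an unadjusted p under 0.05. With either control left out 19 genes passed, 18 of them among the 47, and with either 1 h sample left out 76 passed, 44 of them among the 47. The changes of the 47 genes kept their sign and stayed between 0.855 and 1.15 times their size when either 2 h sample was left out. The 18 genes included ADH2, INO1, ICL1, SFC1, FBP1, RKI1, RPS9B and RPL22A, but not STR3, MUP3 or OPT1.

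All values are the authors' deposited RMA values on the log2 scale, so a difference of 1 is 2-fold. Errors on changes are limma's standard errors (SE). Levels of different probe sets are not on a common scale, and their averages and percentiles serve only as checks of the strain. Root mean square SDs over genes were 0.0556 between the technical arrays at 4 h and 0.0850 between the samples at 2 h, against 0.174 at 1 h and 0.160 in controls. The median change over all genes was 0.03, with quartiles of -0.11 and 0.13. The smallest change that passed was 0.61 in size. A gene is called dim where its mean over the arrays lies below 10.02, the 25th percentile of all probe sets.

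The strain could be checked on the arrays. Probe sets of URA3, LEU2 and MET17 averaged 3.79, 5.89 and 4.58, at percentiles 0.48, 1.24 and 0.84 of all probe sets, and their 4 h minus 2 h values were 0.02, 0.00 and -0.12. The HIS3 probe set averaged 12.1; the strain carries only a partial deletion there, and whether the probes lie in the deleted stretch is unknown, so it checks nothing. MFA1 and MFA2, the a-pheromone genes, averaged 12.2 and 12.9 and the a-cell receptor gene STE2 averaged 12.0, while MF(ALPHA)2 and STE3 of alpha cells averaged 7.59 and 9.27. BAR1, also planned as an a-cell marker, averaged only 10.5, at percentile 36.3 of all probe sets. Control probe sets for ribosomal RNA, 17 in number, had medians of 12.2 and 12.1 on the 4 h arrays, between the 11.4 and 13.0 of the 2 h samples. Across 10 control transcripts probed at both ends, the 3′ end read higher than the 5′ end by 1.36 and 1.30 at 4 h and by 1.27 and 1.30 at 2 h. Among the dimmest 10% of genes the median change was -0.016. The part of these differences in the gene results was not tested.

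**Figure D1:**
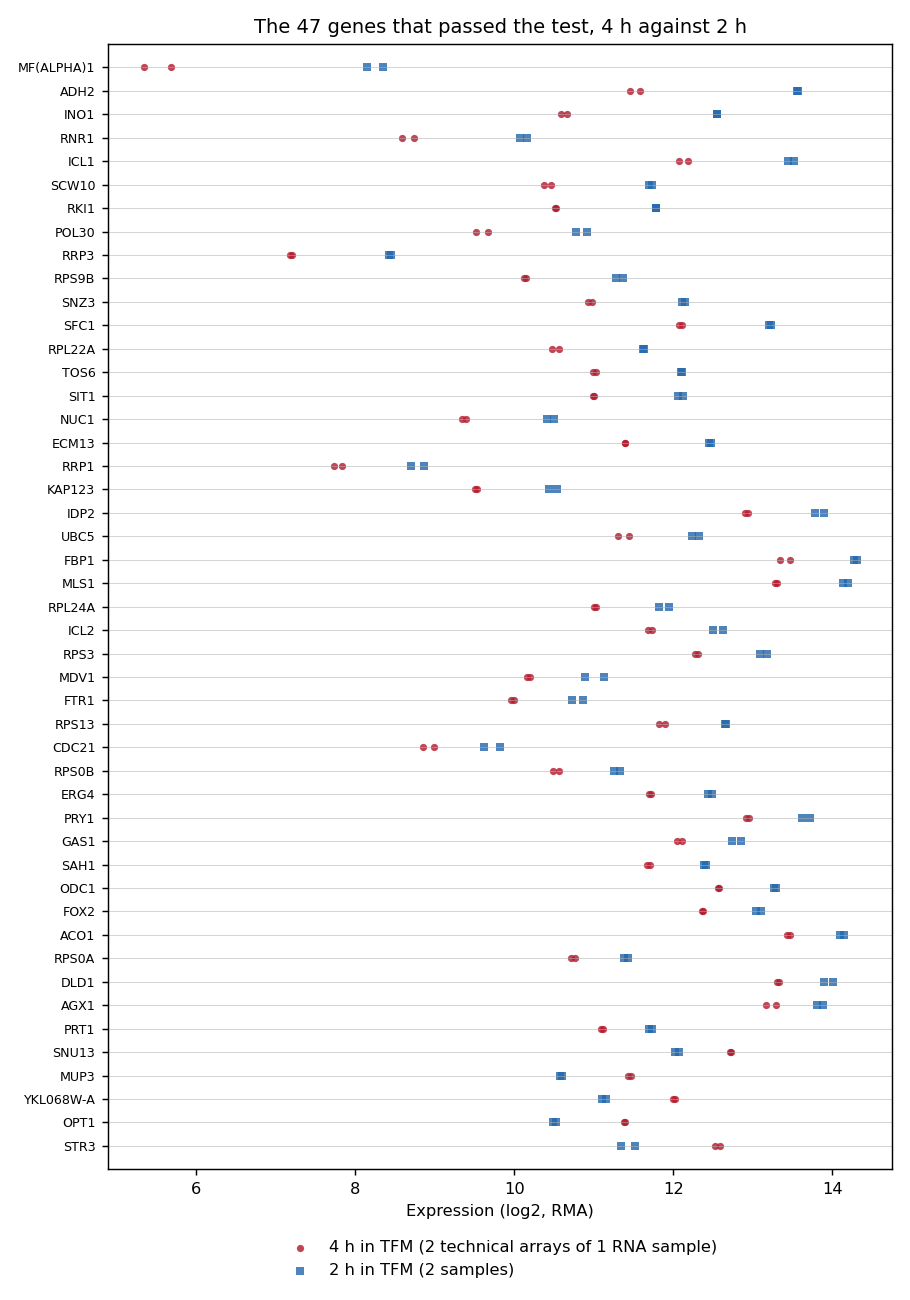
Each row is 1 of the 47 genes that passed the test, ordered by change, with expression (log2, RMA) on the x axis. Circles are the 2 technical arrays at 4 h and squares the 2 samples at 2 h. In every row both circles lie on the same side of both squares.

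The step from ethanol to acetate held the largest fall among genes that were not dim. ADH2 (YMR303C) read 11.58 and 11.45 on the 4 h arrays, against 13.57 and 13.56 in the 2 h samples. The times did not overlap, and both 4 h arrays also lay below the 1 h samples (13.76 and 13.94) and the controls (14.31 and 14.28). Over all genes 19% lay below every earlier sample. ADH2 fell by 2.05 (SE 0.11, adjusted p = 0.00258), to a 4.14-fold lower level. Set against time zero, ADH2 was lower by 2.78 at 4 h (adjusted p = 0.000562), and its value at 2 h against time zero was -0.73 (adjusted p = 0.0679). These differences share the control and TFM samples. ADH2 was the 1 gene that passed of 9 in ethanol and acetate oxidation, where 0.771% of all genes fell. The median of the 9 was -0.15, with 6 lying below the 2 h samples without overlap and 3 above, against 31.3% and 40.7% of all genes. ALD3, an aldehyde dehydrogenase, was at 0.59 and did not pass. ACS1, the acetyl-CoA synthetase known for use in the absence of glucose, read 12.28 and 12.33 at 4 h and 13.12 and 13.03 at 2 h, a difference of -0.77 that did not pass (adjusted p = 0.069).

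The glyoxylate cycle lets cells build carbon skeletons from acetate, and 5 of the 20 measured genes of the cycle and of gluconeogenesis fell while 0 rose. Over all genes 0.771% fell and 0.0918% rose. ICL1 (YER065C), the isocitrate lyase that opens the cycle, read 12.19 and 12.08 at 4 h against 13.52 and 13.44 at 2 h, and fell by 1.35 (SE 0.10, adjusted p = 0.00801). MLS1 (YNL117W), the malate synthase that closes it, read 13.30 and 13.28 at 4 h against 14.20 and 14.13 at 2 h, a fall of 0.87 (adjusted p = 0.0246). In neither gene did the times overlap, and 31.3% of all genes likewise lay below without overlap. SFC1 (YJR095W), the succinate-fumarate carrier that brings the cycle's succinate into mitochondria, read 12.11 and 12.07 at 4 h and 13.21 and 13.23 at 2 h, and fell by 1.13 (SE 0.10, adjusted p = 0.0136). IDP2 (YLR174W), the cytosolic NADP-dependent isocitrate dehydrogenase, fell by 0.91 (SE 0.09), and FBP1 (YLR377C), the fructose-1,6-bisphosphatase of gluconeogenesis, fell by 0.89 (SE 0.09), both with an adjusted p of 0.0186.

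Whether the earlier courses of the 5 genes differ from each other was not tested. FBP1 lay between 14.26 and 14.39 in all 6 earlier samples and read 13.34 and 13.46 at 4 h. Its 2 h level differed from time zero by 0.00 and IDP2's by 0.03. Against time zero ICL1 was at -1.86 at 4 h (adjusted p = 0.00185) and at -0.51 at 2 h (adjusted p = 0.111), and at 1 h it was lower by 0.52 (adjusted p = 0.032). PCK1, the phosphoenolpyruvate carboxykinase that acts beside FBP1, was at -0.15 between 4 h and 2 h and did not pass. Of the regulators of this programme, ADR1 was at -0.02 and CAT8 at 0.09. JEN1, the lactate and pyruvate permease gene, was at -0.54 and did not pass.

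Over the 20 genes the median change was -0.25, against 0.03 over all genes. Both 4 h arrays lay below both 2 h samples for 17 of the 20, against 31.3% of all genes, and above them for 1, against 40.7% of all genes. With either control left out 3 of the 20 passed (ICL1, SFC1 and FBP1), and with either 2 h sample left out 0 passed. Beside the list, 3 genes of neighbouring carbon routes fell and are named here with their values already known. AGX1, which makes glycine from glyoxylate, fell by 0.62, ICL2, a mitochondrial methylisocitrate lyase, by 0.85, and DLD1, the mitochondrial D-lactate dehydrogenase, by 0.64, with adjusted p values of 0.0478, 0.0478 and 0.0488.

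**Figure D2:**
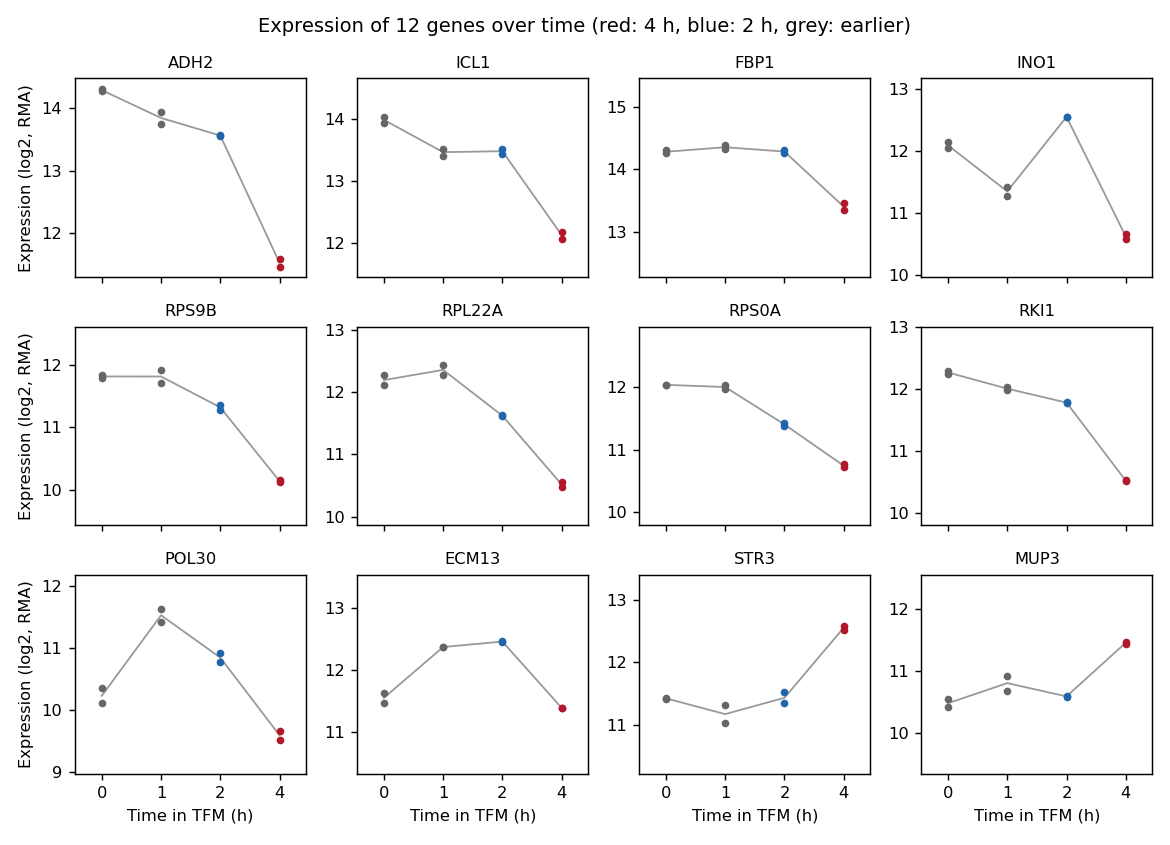
Expression (log2, RMA) of 12 genes against time in TFM in h, with 0 for the controls at time zero. Points are arrays, the grey line joins the means, and all panels span the same height. The 4 h arrays of ADH2, ICL1 and FBP1 lie below every earlier sample and those of STR3 and MUP3 above.

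In the TCA cycle itself 1 of 17 genes passed. ACO1, the aconitase, read 13.46 and 13.43 at 4 h against 14.15 and 14.10 at 2 h and fell by 0.68 (SE 0.09, adjusted p = 0.0456). All 17 had a change below 0, from -0.68 to -0.03. Their median was -0.27, where all genes had a median of 0.03 and a lower quartile of -0.11. For 16 both 4 h arrays lay below both 2 h samples, against 31.3% of all genes. LSC1 of succinyl-CoA ligase was at -0.46 and KGD1 of 2-oxoglutarate dehydrogenase at -0.42. CIT1, the citrate synthase, had the smallest change at -0.03. ODC1, which exports 2-oxoglutarate and other dicarboxylates from mitochondria, fell by 0.71 (adjusted p = 0.0372). With SFC1 it made 2 of 21 mitochondrial carrier genes that fell, against 0.771% of all genes.

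Among genes of ATP synthase, 0 of 17 passed in either direction, and 15 had both 4 h arrays below both 2 h samples, against 31.3% of all genes, with a median of -0.25. ATP19, a small subunit, was at -0.55 (adjusted p = 0.0704). In the respiratory chain 0 of 28 passed, with a median of -0.19. Of the 28, 19 lay below and 2 above without overlap, against 31.3% and 40.7% of all genes. CYC1, the main cytochrome c, had 12.74 and 12.93 at 4 h against 13.77 and 13.66 at 2 h. NDI1, the internal NADH dehydrogenase, had 12.38 and 12.45 at 4 h against 13.21 and 13.18 at 2 h. In both genes the 4 h arrays lay below both 2 h samples, as for 31.3% of all genes. Neither change passed (-0.88 and -0.78, adjusted p = 0.069 and 0.077). The 67 mitochondrial ribosomal protein genes had a median of -0.06 and 0 passed. HAP4, the activator subunit gene known for respiratory genes, was at 0.03.

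Peroxisomal beta-oxidation breaks fatty acids down to acetyl-CoA. FOX2, its multifunctional enzyme, fell by 0.70 (adjusted p = 0.0461). Of the 18 genes it alone passed, where 0.771% of all genes fell. POX1, the acyl-CoA oxidase, was at -0.79 (adjusted p = 0.118) and CTA1, the peroxisomal catalase, at -0.70 (adjusted p = 0.0672). The median of the 18 was -0.27, and 12 lay below and 3 above without overlap, against 31.3% and 40.7% of all genes. Glycolysis and fermentation genes had a median of 0.03, equal to that of all genes, and 0 of 22 passed.

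**Figure D3:**
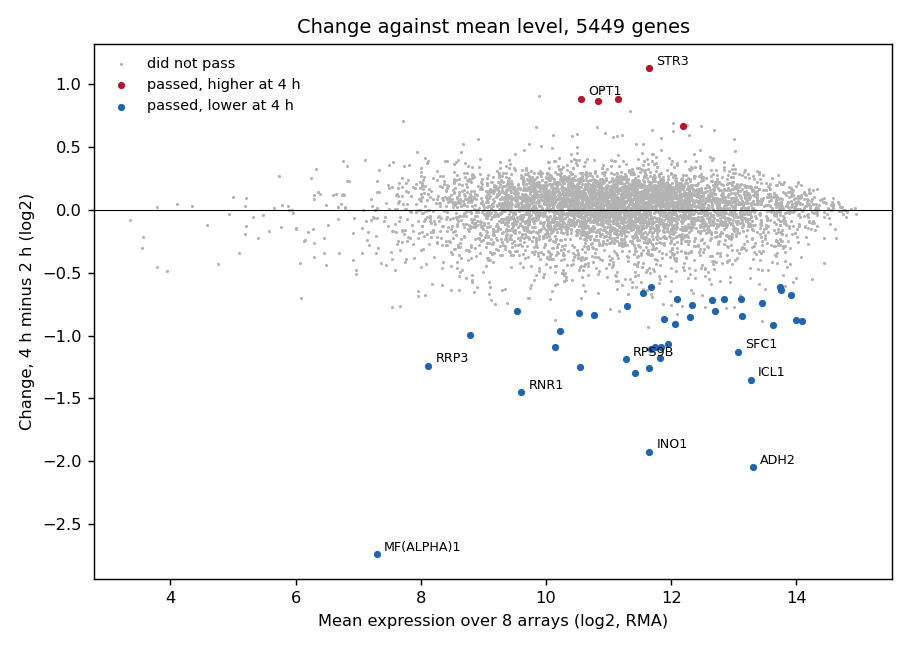
Change from 2 h to 4 h (log2, 4 h minus 2 h) against mean expression over the 8 arrays (log2, RMA) for 5449 genes. Red points passed the test and were higher at 4 h, blue points passed and were lower, and grey points did not pass. Most points past the test lie below 0, and MF(ALPHA)1 is among the dimmest genes.

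Of the 127 cytosolic ribosomal protein genes, 7 fell and 0 rose, where 0.771% and 0.0918% of all genes did. RPS9B (YBR189W) of the small subunit read 10.15 and 10.12 at 4 h against 11.37 and 11.28 at 2 h and fell by 1.19 (SE 0.12, adjusted p = 0.0186). RPL22A (YLR061W) of the large subunit read 10.56 and 10.47 at 4 h against 11.63 and 11.61 at 2 h and fell by 1.11 (SE 0.12, adjusted p = 0.0196). The times did not overlap in either gene, and 31.3% of all genes likewise lay below the 2 h samples. RPL24A fell by 0.86, RPS3 by 0.84, RPS13 by 0.80, RPS0B by 0.76 and RPS0A by 0.66, with adjusted p values between 0.0205 and 0.042. By subunit these were 5 of 52 small-subunit and 2 of 75 large-subunit genes. With either control left out 2 of the 127 passed, RPS9B and RPL22A, and with either 1 h sample left out 12 passed.

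Ribosomal protein genes as a group had a median change of -0.22, and 103 of the 127 had both 4 h arrays below both 2 h samples while 8 had them above, against 31.3% and 40.7% of all genes. Relative to the 2 h mean, the medians of the large-subunit genes were 0.12 and 0.21 in controls and 0.20 and 0.30 after 1 h. They were 0.02 and -0.02 after 2 h and -0.24 and -0.21 after 4 h. For the small-subunit genes they were 0.14 and 0.20, 0.17 and 0.27, 0.02 and -0.02, and -0.20 and -0.17 in the same order. Both series were thus lowest at 4 h, and the controls and 1 h samples overlapped. RPS0A was at -1.30 at 4 h against time zero (adjusted p = 0.00296) and at -0.64 at 2 h (adjusted p = 0.0679). IFH1 and SFP1, regulators known for ribosomal protein genes, were at 0.46 and 0.37 between 4 h and 2 h and did not pass.

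Most yeast ribosomal proteins are encoded by an A and a B copy. Matched by gene name alone, 50 pairs had both copies measured, RPP1 and RPP2 included. The changes of the copies differed by a median of 0.184. In the RPL22 pair the A copy fell by 1.11, while RPL22B, with 9.36 and 9.28 at 4 h and 9.13 and 9.20 at 2 h, was at 0.16. RPL24A fell by 0.86 and RPL24B was at 0.10. In the RPS9 pair RPS9B fell by 1.19 and RPS9A was at -0.23, but RPS9A and RPL22B are dim. RPS0A and RPS0B both fell. RPS27A was at 0.32 and RPS27B at -0.52, and neither passed. Many copies are close in coding sequence, so how far their probe sets tell them apart is uncertain, and differences between copies were not tested.

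**Figure D4:**
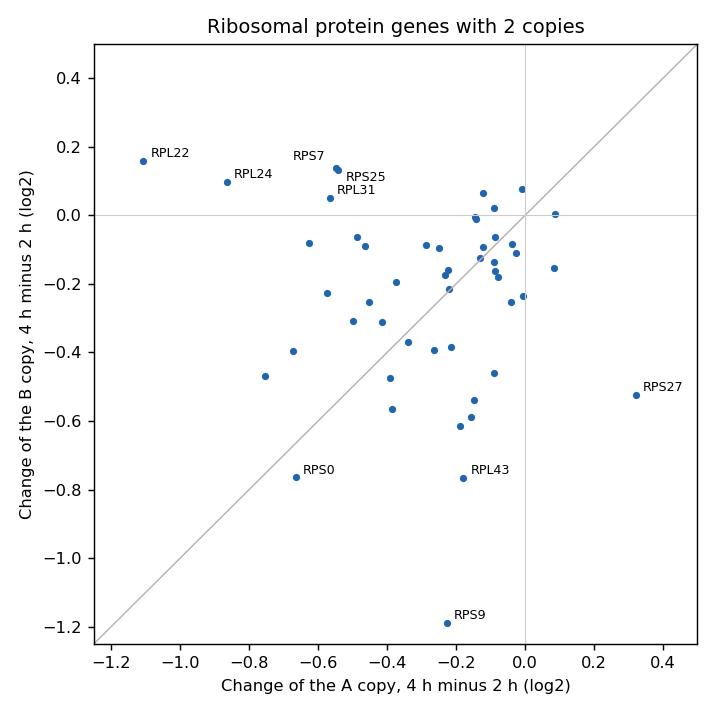
Change of the B copy against change of the A copy (both log2, 4 h minus 2 h) for 50 pairs of ribosomal protein genes. The diagonal marks equal change, and labelled pairs differ most or, for RPS0, have both copies past the test. Most points lie below 0 on both axes, and RPL22, RPL24, RPS9 and RPS27 lie far from the diagonal.

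Other genes of protein synthesis passed in small numbers. KAP123 (YER110C), the importin that carries ribosomal proteins into the nucleus, read 9.53 and 9.50 at 4 h against 10.43 and 10.53 at 2 h and fell by 0.97 (SE 0.14, adjusted p = 0.0478). PRT1, a subunit of initiation factor eIF3, fell by 0.61 (adjusted p = 0.0478), 1 of 33 translation factor genes. Of 132 ribosome biogenesis genes 2 fell, where 0.771% of all genes did. RRP3, a helicase of small-subunit processing, fell by 1.24 (SE 0.13, adjusted p = 0.0205), and RRP1, of large-subunit processing, fell by 0.99 (adjusted p = 0.0461). Both are dim, as are 68 of the 132, whose median change was -0.12. NSR1, a nucleolar protein, was at 0.60 and did not pass. SNU13 (YEL026W), an RNA-binding protein shared by the U3 and spliceosomal particles, read 12.71 and 12.72 at 4 h against 12.07 and 12.02 at 2 h and rose by 0.67 (SE 0.09, adjusted p = 0.0456).

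Sulfur and methionine metabolism had the highest median of the 44 gene lists, 0.27, with 2 of 36 genes past the test, both higher. Over all genes 0.0918% were higher. STR3 (YGL184C), the cystathionine beta-lyase that makes homocysteine from cystathionine, read 12.53 and 12.59 at 4 h against 11.52 and 11.34 at 2 h and rose by 1.13 (SE 0.15, adjusted p = 0.0364), a 2.19-fold higher level. MUP3 (YHL036W), a low-affinity methionine permease, read 11.47 and 11.43 at 4 h against 10.59 and 10.58 at 2 h and rose by 0.87 (SE 0.13, adjusted p = 0.0478). Both 4 h arrays lay above every earlier sample in both genes, as they did for 20% of all genes. MUP3 is also 1 of 21 amino acid permease genes, of which it alone passed. With either control left out 0 of the 36 sulfur genes passed, and with either 1 h sample left out 4 passed. Without 4 h array 1 STR3 passed and MUP3 did not. At 2 h STR3 and MUP3 differed from time zero by 0.01 and 0.11.

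Of the 36 sulfur genes, 32 had both 4 h arrays above both 2 h samples and 1 had them below, against 40.7% and 31.3% of all genes. SAM1, an S-adenosylmethionine synthetase, was at 0.69, MUP1, the high-affinity methionine permease, at 0.67, MET2, which activates homoserine, at 0.66 and the sulfate permease SUL2 at 0.66, and none of these passed. Its paralog SUL1 was the one gene below, at -0.52. Among the regulators, MET32 was at 0.66, MET28 at 0.48 and MET4 at 0.13. The strain lacks MET17, whose product joins sulfide to the methionine pathway. The median of the list relative to 2 h was 0.01 and -0.01 in controls and -0.06 and -0.27 after 1 h, and 0.27 and 0.26 after 4 h. SAH1 (YER043C), the S-adenosylhomocysteine hydrolase, which is outside the list and was named with its values known, fell by 0.71 (SE 0.09, adjusted p = 0.0344), with 11.70 and 11.67 at 4 h and 12.41 and 12.39 at 2 h.

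OPT1 (YJL212C), a transporter of glutathione and small peptides, read 11.40 and 11.38 at 4 h against 10.53 and 10.48 at 2 h and rose by 0.89 (SE 0.12, adjusted p = 0.0412). YKL068W-A, for which no role is given here, read 11.99 and 12.02 at 4 h against 11.15 and 11.10 at 2 h and rose by 0.88 (SE 0.13, adjusted p = 0.0461). In each the 4 h arrays lay above all 6 earlier samples, as they did for 20% of all genes.

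**Figure D5:**
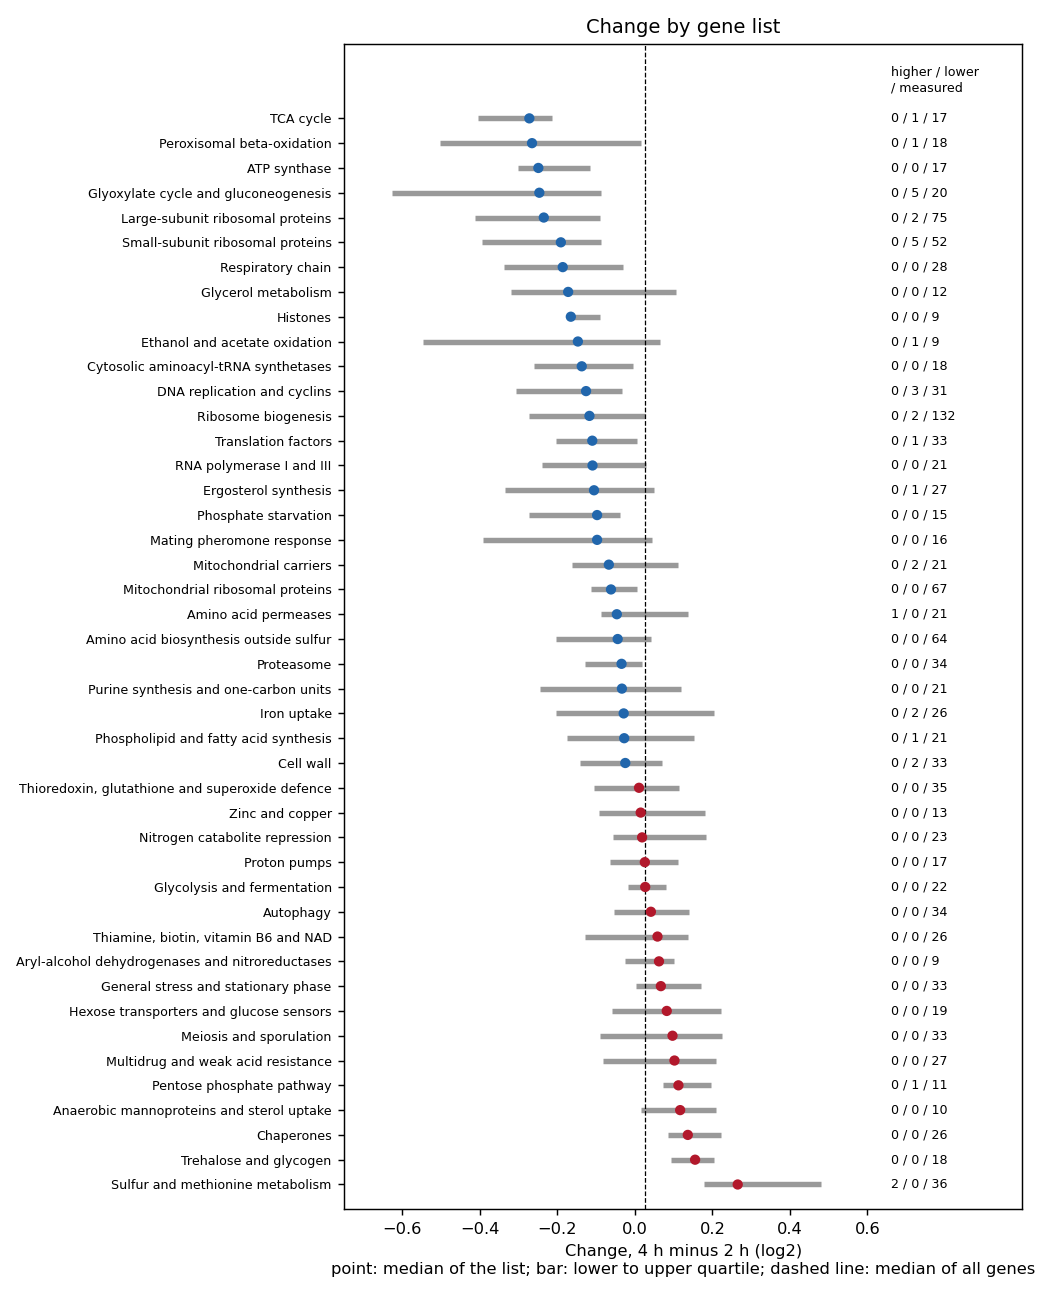
Median change (log2, 4 h minus 2 h) of 44 gene lists as points, with bars from the lower to the upper quartile and a dashed line at the median of all genes. The columns at the right give how many members were higher, how many were lower and how many were measured. The TCA cycle has the lowest median, -0.27, and sulfur and methionine metabolism the highest, 0.27.

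INO1 (YJL153C), which makes inositol phosphate and is known to be repressed by inositol and choline, had an uneven course. In controls it read 12.04 and 12.13, then 11.27 and 11.42 after 1 h. It stood at 12.54 and 12.55 after 2 h and at 10.66 and 10.58 after 4 h. Between 2 h and 4 h INO1 fell by 1.93 (SE 0.10, adjusted p = 0.00258), to a 3.8-fold lower level, and the 4 h arrays lay below all others. Of 21 phospholipid and fatty acid synthesis genes INO1 alone passed, where 0.771% of all genes fell. CHO1, the phosphatidylserine synthase, was at -0.72 (adjusted p = 0.0908) and OPI3, a phospholipid methyltransferase, at -0.47, and the median of the list was -0.03. In ergosterol synthesis ERG4, the last reductase of the pathway, fell by 0.75 (SE 0.09, adjusted p = 0.0325). It alone passed of 27 genes, against the same 0.771% of all genes. ERG3, the C-5 desaturase, was at -0.82 without passing. PRY1, a secreted sterol-binding protein outside the lists, fell by 0.74 (adjusted p = 0.0344) and was named with its values known.

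RKI1 (YOR095C), the ribose-5-phosphate isomerase of the pentose phosphate pathway, read 10.52 and 10.53 at 4 h against 11.78 and 11.78 at 2 h and fell by 1.26 (SE 0.09, adjusted p = 0.00801). The other 10 genes of the pathway lay between -0.12 (RPE1) and 0.24 (TKL2), and 0 of them passed. RKI1 was at -1.74 against time zero at 4 h (adjusted p = 0.00169) and had been at -0.49 at 2 h (adjusted p = 0.0934). SNZ3, of vitamin B6 synthesis, fell by 1.18 (SE 0.12, adjusted p = 0.0186). SNZ2 is a near-identical gene, so which of them changed is uncertain. SNZ1 was at -0.33 and did not pass.

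Genes of DNA precursor supply and replication included 3 of 31 that fell, against 0.771% of all genes. POL30 (YBR088C), the sliding clamp of DNA polymerase, read 9.67 and 9.52 at 4 h against 10.78 and 10.91 at 2 h and fell by 1.25 (SE 0.15, adjusted p = 0.0293). RNR1 (YER070W), the large subunit of ribonucleotide reductase, read 8.59 and 8.73 at 4 h against 10.07 and 10.16 at 2 h and fell by 1.45 (SE 0.21, adjusted p = 0.0478). CDC21, the thymidylate synthase, fell by 0.80 (SE 0.12, adjusted p = 0.0478). RNR1 and CDC21 are dim, and 13 of the 31 are. The median was -0.13, and 20 of 31 lay below and 3 above without overlap, against 31.3% and 40.7% of all genes. With either control left out POL30 alone passed.

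POL30 read higher in the earlier TFM samples than at time zero, with 11.43 and 11.63 at 1 h against 10.11 and 10.35 in controls. Its difference from time zero was -0.64 at 4 h (adjusted p = 0.0733) and 0.61 at 2 h (adjusted p = 0.144). RNR1 was at -0.77 at 4 h and at 0.68 at 2 h against time zero, and neither passed. Among histone genes 0 of 9 passed, and HHO1, the linker histone, was at -0.65 (adjusted p = 0.0594).

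ECM13, TOS6 and NUC1 also read above time zero at 2 h and fell by 4 h, and of these ECM13 alone passed at 2 h. ECM13 (YBL043W), for which no role is given here, read 11.39 on both 4 h arrays against 12.47 and 12.45 at 2 h and fell by 1.07 (SE 0.10, adjusted p = 0.0186). Its value against time zero was -0.16 at 4 h (adjusted p = 0.436), and at 2 h it had been higher by 0.91 (adjusted p = 0.0472). TOS6 (YNL300W), a cell surface glycoprotein, fell by 1.09 (SE 0.11, adjusted p = 0.0186), with 10.99 and 11.03 at 4 h and 12.10 and 12.11 at 2 h. At 2 h it had been at 0.58 against time zero without passing (adjusted p = 0.103). NUC1 (YJL208C), the mitochondrial nuclease, fell by 1.09 (SE 0.14, adjusted p = 0.0344), and had been at 0.40 at 2 h against time zero without passing (adjusted p = 0.241). MDV1, an adaptor of mitochondrial fission named with its values known, fell by 0.83 (adjusted p = 0.0478) from a 2 h level at 0.03 against time zero.

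At the cell surface, SCW10 (YMR305C), a glucanase-like wall protein, read 10.46 and 10.37 at 4 h against 11.69 and 11.73 at 2 h and fell by 1.29 (SE 0.10, adjusted p = 0.00801). GAS1, the glucanosyltransferase that extends wall glucan, fell by 0.72 (adjusted p = 0.0478). These were 2 of 33 cell wall genes, against 0.771% of all genes that fell, and the median of the list was -0.02. CWP1 and SCW11 were at 0.57 each without passing. In iron uptake, 2 of 26 genes fell, against 0.771% of all genes. SIT1 (YEL065W), a siderophore transporter, fell by 1.09 (SE 0.11, adjusted p = 0.0186), with 11.00 and 10.99 at 4 h and 12.12 and 12.05 at 2 h. FTR1, the high-affinity iron permease, fell by 0.82 (adjusted p = 0.0456), while FET3, the oxidase that works with it, was at -0.31. Of the 26, 12 lay below and 11 above the 2 h samples without overlap, where 31.3% and 40.7% of all genes did.

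MF(ALPHA)1 (YPL187W), the alpha-factor precursor gene that a cells are known to keep silent, had the largest change of all genes tested. It read 5.34 and 5.68 at 4 h against 8.15 and 8.35 at 2 h and fell by 2.74 (SE 0.28, adjusted p = 0.0186). It is dim, and a dim probe set is not shown to read its transcript. Of 16 genes of the pheromone response of a cells 0 passed, and KAR4 was at -0.74. UBC5, a ubiquitin-conjugating enzyme gene named with its values known, fell by 0.91 (SE 0.11, adjusted p = 0.0344), with 11.30 and 11.44 at 4 h and 12.32 and 12.24 at 2 h. Among 34 proteasome genes 0 passed.

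No chaperone, trehalose or glycogen gene passed the test. All 26 chaperone genes had a change above 0. Their median was 0.14, where all genes had a median of 0.03 and an upper quartile of 0.13. For 24 both 4 h arrays lay above both 2 h samples, against 40.7% of all genes. The largest values were YDJ1 at 0.33 and SSA3 and MDJ1 at 0.32, and HSP26 was at 0.00. Trehalose and glycogen genes had a median of 0.16, and 14 of 18 lay above and 3 below without overlap, against 40.7% and 31.3% of all genes. General stress genes had a median of 0.07, with 0 of 33 past the test, PHM7 at 0.79 and SPG1 at -0.77 (adjusted p = 0.481 and 0.0521). HSP12, a small membrane-protecting stress protein, was at 0.07. The stress and glucose regulators MSN4 and MIG1 were at 0.39 and 0.29.

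Genes that respond to weak acids and foreign compounds did not pass. PDR12, the weak acid efflux pump, had 11.20 and 11.14 at 4 h and 12.08 and 12.12 at 2 h, a difference of -0.93 (SE 0.21, adjusted p = 0.135). PDR5, the main drug efflux pump, was at 0.14, and the median of the 27 genes was 0.10. PMA1, the plasma membrane proton pump, read 12.66 on both 4 h arrays against 13.33 and 13.34 at 2 h, a difference of -0.68 (SE 0.11, adjusted p = 0.0672). The other 16 proton pump genes had no member past the test. Among amino acid genes outside sulfur 0 of 64 passed, with ARO4 at -0.72 and the regulator GCN4 at -0.05.

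All 42 genes that fell had both 4 h arrays below all 6 earlier samples, and all 5 that rose had them above. Over all genes 19% lay below and 20% above. The genes that fell or rose were picked by their change from 2 h to 4 h. Lying outside the 2 h samples follows largely from that choice, so the shares beside them are no test. The median difference between 1 h and time zero was 0.08 over the genes that fell and 0.07 for those that rose, against -0.03 for all genes. The 1 h and time zero samples entered the test through the estimate of spread, so this difference is not independent of the choice of genes. Of the 44 lists, 17 held a gene past the test and 27 held none; the medians were below 0 in 27 and above 0 in 17.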

How the data were processed

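Total RNA was labelled as biotin cRNA and hybridised to 1-colour Affymetrix yeast arrays, per the labels' protocols. The authors made the deposited log2 values by RMA, per the submitters' processing notes. RMA gives arrays a shared distribution, so cells with less mRNA in all would look unchanged. The base of 2 was judged from the range of the values. Neither it nor a genome build is named in the labels. Of 5814 probe sets 5498 had 1 gene name, 0 several and 316 none, from the platform annotation, and 12 symbols were updated through the RefSeq R64 table. Where a gene had several probe sets (47 genes), the one with the highest mean stood for it, giving 5449 genes. No coordinates or sequences are given.

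The 4 h arrays were averaged, and 7 RNA samples were fitted with limma 3.58.1 in R 4.3.3 (lmFit, eBayes, prior SD 0.0958, with 3 residual and 3.36 prior degrees of freedom). Benjamini-Hochberg adjustment ran over all genes, with a threshold of 0.05. Whether replicates came from separate cultures is not given. The p-values measure the spread between the samples at time zero, 1 h and 2 h, and no spread at 4 h. The number of arrays limits the precision.

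Genes were named by size among those past the test that are not dim (up to 15 each way), by the 44 lists (up to 5 members past the test, or 3 where none passed) and as regulators or strain checks. Any other gene was chosen after its values were seen. The comparison, the lists and this rule were chosen with earlier results of these data known. Alternatives changed the samples fitted, the prior, the normalization, the filter, the probe set and the samples left out.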

Additional observations from a re-analysis of the deposited data

Results flagged for a closer look

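The 17 ribosomal RNA control probe sets lie outside the genes tested. Their median on the 4 h arrays was above the control median by 2.27 on the log2 scale. At 4 h the values of 12.2 and 12.1 lay between the 11.4 and 13.0 of the 2 h samples, so this measure did not separate the times compared. Its part in the gene results was not tested.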

How the results depend on the processing

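The counts depended on the estimate of spread. Against 47 genes (5 higher, 42 lower), a fit of the 2 h and 4 h samples alone gave 647 (191 and 456), where the spread comes from the 2 h samples only. A trended prior gave 108 (9 and 99), and genes above the 25th percentile 91 (11 and 80), with fewer genes tested. Quantile normalization left 3 higher and 30 lower. Leaving out samples gave totals from 0 to 76, 0 to 11 higher and 0 to 65 lower. The 0 came without either 2 h sample, 19 without either control and 76 without either 1 h sample. Leaving out a control or 1 h sample only takes that group's spread out of the estimate, so either sample of such a pair gave the same count. Leaving out a 2 h sample also changes the 2 h mean, which then rests on 1 sample. The spread it takes out was the smallest of these groups (root mean square SD 0.0850, against 0.174 at 1 h and 0.160 in controls). With 1 array at 4 h in place of the mean the totals were 41 and 49. Median centring gave 45, and the robust prior and the mean of probe sets gave 47 each. In none of these did a gene of the 47 change sign. List medians changed sign only for amino acid permeases, zinc and copper, iron uptake and cell wall, all near 0. No paired analysis was possible because the averaged 4 h sample carries no replicate number.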

Other observations

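Some genes past the test lie close together on the chromosomes in the RefSeq gene order. On chromosome XIII, ADH2, SCW10 and GAS1 follow each other with 1 gene between each pair, and all 3 fell: ADH2 fell by 2.05, SCW10 fell by 1.29 and GAS1 fell by 0.72. The genes between them, UBP15 and FKS3, were at 0.06 and 0.01 and did not pass. ICL1 and RNR1 on chromosome V have 4 genes between them, as do UBC5 and RPS13 on chromosome IV, and all 4 fell. OPT1, which rose by 0.89, and NUC1, which fell by 1.09, have 2 genes between them on chromosome X. These neighbours were noticed after the values were known and were not tested.

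Of 218 probe sets with no gene name, controls and reporters left out, 0 were higher and 2 lower at 4 h than at 2 h in limma's fit over all probe sets, with a smallest adjusted p of 0.0359. Their median change was 0.03.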
